A study of Mus musculus with 36 samples.

Results

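The 14-3-3 proteins are a family of small adaptors, and the data hold 7 genes for them: Ywhab (beta), Ywhae (epsilon), Ywhag (gamma), Ywhah (eta), Ywhaq (theta), Ywhaz (zeta) and Sfn (sigma). They were found by gene name and make 7 of the 16614 rows of the count table, which has no other row whose name starts with Ywha. For 5 of them (all but Ywhaq and Sfn) the lists of ribosome-protected fragment (RPF) peaks also hold entries. The study isolated ribosomes from whole brains of postnatal day 5 C57BL/6 mice (WT) and of FMR1 KO mice, which lack FMRP, the RNA-binding protein lost in fragile X syndrome, with 10 brains in each preparation. A sucrose gradient gave a pellet, in which the study sees an enrichment of RNA granules with stalled ribosomes that other ribosomes may share, and fraction 5/6, which holds polysomes. RPFs from both, and RNA-seq of the brain homogenate, were sequenced in 3 preparations of each genotype with a standard nuclease preparation in 10 mM MgCl2 and again with a low nuclease preparation in 2.5 mM MgCl2, which gives 12 groups and 36 libraries. A p-value here therefore measures the spread between preparations of pooled animals.

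14-3-3 proteins form homodimers and heterodimers. Each dimer binds phosphorylated serine or threonine on partner proteins such as kinases, phosphatases, transcription factors and ion channels, and the binding hides, holds or bridges parts of the partner. They are among the more abundant soluble proteins of the brain, except for 14-3-3 sigma, which is known from keratinized epithelium. The genes arose by duplication, so their proteins are close relatives: beta and zeta shared 86.9% of aligned residues in the annotated sequences, gamma and eta 87%, and epsilon stood farthest from the others at 58.9% to 67.5%.

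The genome holds further copies of some of these mRNAs. Processed pseudogenes are intronless copies of an mRNA, and a short RPF cannot be assigned to a gene when the same bases occur at a copy. Every stretch of 30 bases (30-mer) of the coding sequences was therefore looked up on the 21 chromosomes of GRCm38. Of the coding 30-mers, 0.564% of Ywhab, 0.702% of Ywhag and 2.04% of Ywhae occurred a second time. The values were 63.6% for Ywhah, 66.9% for Sfn, 96.6% for Ywhaz and 99.7% for Ywhaq. Across 16369 mRNAs the median was 1.6%, and 1.25% of mRNAs were at 95% or more, so Ywhaz and Ywhaq belonged to a small group of brain mRNAs with almost no coding sequence of their own. Ywhaz had 24 unique 30-mers of 706 and Ywhaq 2 of 706.

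The closest copies were annotated processed pseudogenes. For Ywhaz it was Gm4202 on chr3:92689425-92690160, identical at 735 of 735 coding bases apart from 1 insertion. For Ywhaq it was Gm2423 on chr13:13232161-13232895, with 2 substitutions. For Ywhah it was Gm12428 on chr3:98821038-98821761, with 7 substitutions and 2 length differences. The windows that the results below turn on are shown here, 5′ to 3′ along each mRNA, read from the chromosomes of GRCm38. The first 3 are the stretches covered by the recurrent Ywhaz peaks. Capitals mark the bases on either side of the place where the copy has its insertion, or on either side of an exon junction. They lie at chr15:36790799-36790861, chr15:36775546-36776277 and chr15:36775303-36775448 on the minus strand, the last 2 with an intron inside the interval.
Ywhaz bases 515 to 577: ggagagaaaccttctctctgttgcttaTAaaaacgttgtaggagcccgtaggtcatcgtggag
Ywhaz bases 785 to 850: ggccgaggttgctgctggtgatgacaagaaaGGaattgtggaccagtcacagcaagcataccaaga
Ywhaz bases 948 to 1012: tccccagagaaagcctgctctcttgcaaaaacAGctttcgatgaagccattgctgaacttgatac
The next 3 are the stretches covered by Ywhah peaks that recurred in every library, with the base that differs from Gm12428 in capitals. They lie on the plus strand at chr5:33019153-33026605, which has an intron inside, chr5:33026977-33027043 and chr5:33027043-33027107.
Ywhah bases 338 to 403: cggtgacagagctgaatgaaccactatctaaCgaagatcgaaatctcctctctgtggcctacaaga
Ywhah bases 775 to 841: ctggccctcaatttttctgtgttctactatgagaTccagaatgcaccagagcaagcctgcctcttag
Ywhah bases 841 to 905: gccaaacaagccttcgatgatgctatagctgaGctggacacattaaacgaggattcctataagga
The coding sequence of Ywhaq had a single stretch without a copy, 31 bases that cross an exon junction (chr12:21395033-21396284, minus strand), with the base that differs from Gm2423 in capitals.
Ywhaq bases 925 to 955: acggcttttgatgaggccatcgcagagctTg
For comparison, 3 windows with little or no copied sequence are shown with the start or stop codon in capitals. That of Ywhab (chr2:164011605-164011632, plus strand) runs from the start codon, which lies before the peak, to the end of its first recurrent peak, which starts at base 413. Those of Ywhag (chr5:135910978-135911034, minus strand) and Ywhae (chr11:75764635-75764694, plus strand) are the stretches covered by their peaks at the stop codon.
Ywhab bases 410 to 437: ATGaccatggataagagtgagctggtac
Ywhag bases 895 to 951: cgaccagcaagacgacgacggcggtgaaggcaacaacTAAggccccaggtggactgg
Ywhae bases 890 to 949: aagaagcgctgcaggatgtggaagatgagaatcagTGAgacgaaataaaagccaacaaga

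All 7 genes are protein coding, and their positions are those of the GENCODE annotation on GRCm38. Ywhab (ENSMUSG00000018326) lies at chr2:163994960-164018588, Ywhae (ENSMUSG00000020849) at chr11:75732869-75765845, Ywhag (ENSMUSG00000051391) at chr5:135908409-135934616 and Ywhah (ENSMUSG00000018965) at chr5:33018816-33027966. Ywhaq (ENSMUSG00000076432) lies at chr12:21390071-21417637, Ywhaz (ENSMUSG00000022285) at chr15:36770770-36796929 and Sfn (ENSMUSG00000047281) at chr4:133600556-133602168. Their coding sequences are alike in length, from 735 to 765 bases. Base positions in the text count from the first base of the mRNA on which the peaks were listed, and for Ywhaz this transcript (ENSMUST00000110361) is not the one that the count table names (ENSMUST00000110362).

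Total counts ran from 6765065 to 40174168 in the standard RPF libraries, from 23634940 to 62310787 in the low nuclease RPF libraries, and from 112249206 to 147216378 in standard RNA. One gene, Cdk8, took 36.7% to 63.4% of the standard RPF counts, so levels are given as CPM, the count of a gene scaled to the summed counts of all genes but Cdk8. Markers of neurons summed to 4753 to 10590 CPM in the standard RPF libraries, and the 2 keratinized epithelium markers in the table to 0.795 to 6.3 CPM in the same libraries. Fmr1, the targeted gene, was at 4.79 to 4.93 CPM in the FMR1 KO pellet and at 64.6 to 67.8 CPM in the WT pellet. The library labelled WT fraction 5/6 replicate 3 went against its label with 3.17 CPM, while the other WT fraction 5/6 libraries of the standard preparation held 68.6 and 100.1 CPM. Across 7584 genes its nearest library was FMR1 KO pellet replicate 3 (r = 0.904), so the tests that include it were also run without it. Among low nuclease RNA, 3 libraries stand apart, with 82.4% to 85% of their counts in 10 genes: replicate 2 of WT, and replicates 2 and 3 of FMR1 KO.

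**Figure D1:**
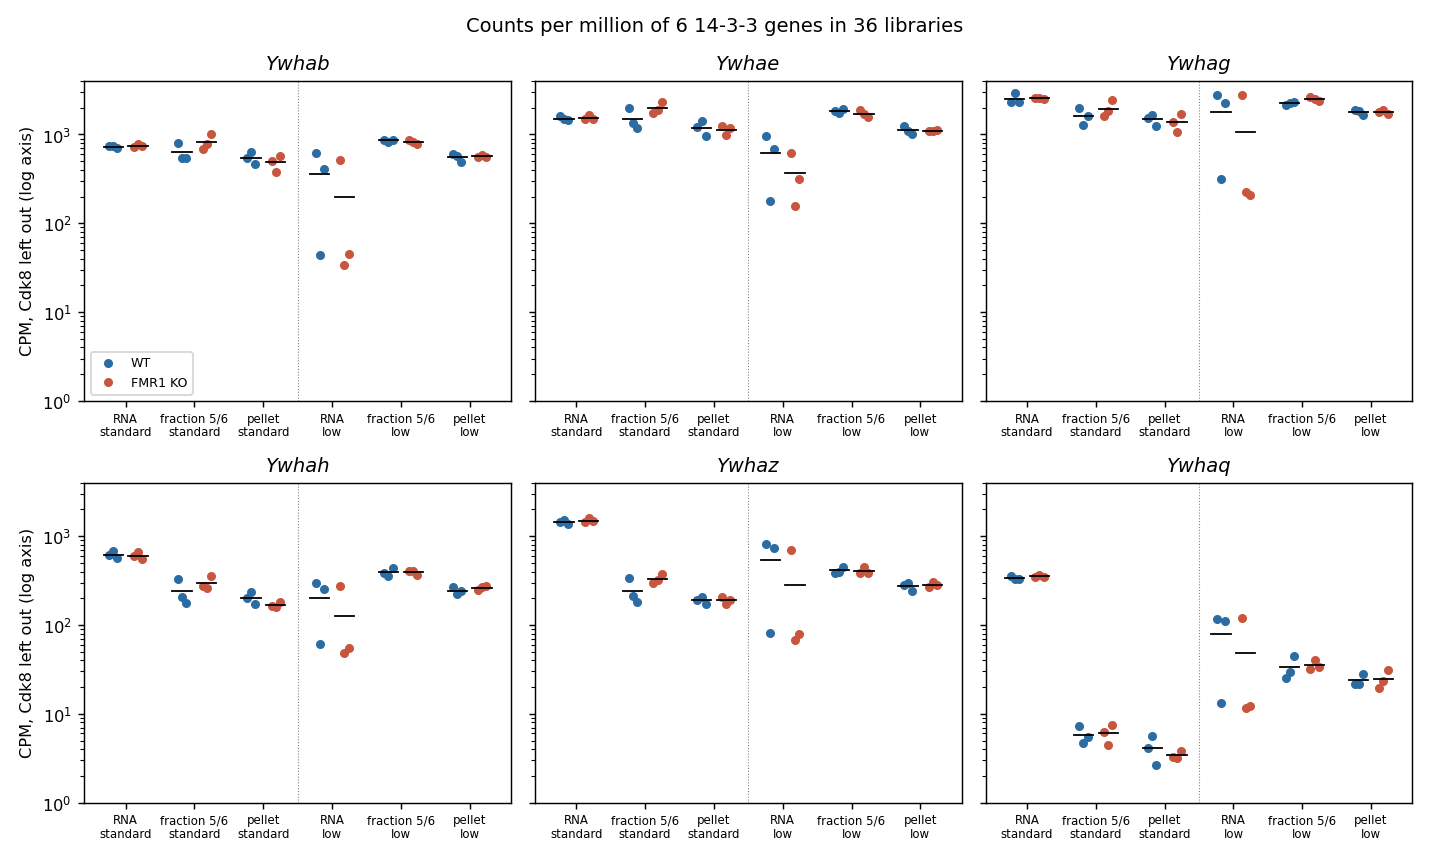
CPM (log axis) of 6 14-3-3 genes in every library, by library type and preparation, with WT in blue, FMR1 KO in red, 1 point per library and a black line at the mean of 3. Ywhaq fell from 326 to 367 CPM in standard RNA to 2.68 to 5.64 CPM in the standard pellet, and 3 low nuclease RNA libraries lay below the other RNA libraries for every gene.

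The 14-3-3 mRNAs made up 0.677% to 0.768% of RNA counts outside Cdk8 in the standard preparation, 0.357% to 0.651% of fraction 5/6 counts and 0.277% to 0.417% of pellet counts. These shares depend on the scaling: in CPM scaled by the trimmed mean of M values (TMM), the 7 genes summed to 3887 to 4840 in RNA and 4112 to 4635 in the pellet, which overlap, and to 4246 to 6116 in fraction 5/6, where the lowest is the library labelled WT fraction 5/6 replicate 3. Per kilobase of exon, the RNA level was highest for Ywhae (562 to 644 CPM per kilobase) and next for Ywhag (418 to 532), Ywhaz (334 to 387), Ywhab (207 to 232), Ywhah (148 to 183) and Ywhaq (106 to 120), and no neighbours in this order overlapped. The order depends on the length used, which is that of all annotated exons of a gene. It was 5500 bases for Ywhag and 3709 for Ywhah, where the transcripts that carry the peaks have 3520 and 1764. Levels by transcript length were not computed. Sfn RNA was at 62 to 135 counts in libraries with 112249206 counts or more. In bulk brain, fewer cells of a type and less RNA per cell cannot be told apart.

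RPFs come from coding sequence, so pellet and RNA were also set side by side per kilobase of coding sequence, although RNA reads cover the UTRs as well. On this scale Ywhag led in RNA (3103 to 3950 CPM per kilobase), Ywhae (1887 to 2162) and Ywhaz (1869 to 2171) overlapped, and Ywhab (947 to 1062), Ywhah (746 to 922) and Ywhaq (443 to 499.9) followed without overlap. In the pellet, Ywhag (1443 to 2298 CPM per kilobase) and Ywhae (1254 to 1855) were highest and overlapped, and Ywhab followed (515 to 851). Ywhah (218 to 318) and Ywhaz (234 to 284) overlapped each other, and Ywhaq stood at 3.65 to 7.68. Ywhaz thus overlapped Ywhae in RNA and Ywhah in the pellet. Sfn had 0 or 1 count in each pellet library, where a count of 0 allows up to 3 counts or 0.141 to 0.252 CPM, so its footprints were not detectable at this depth. Among the 6 expressed genes it was the 3 with the most copied coding sequence that held the lowest pellet levels.

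The composition of the family shows this without any scaling between libraries. Ywhag made up 35% ± 1.96 (SD, n = 6) of the 7 genes' counts in RNA and 40.9% ± 2.04 in the pellet, and Ywhae 21.2% ± 1.11 in RNA and 33.4% ± 1.96 in the pellet. Ywhab, the beta isoform known to bind Raf kinases, went from 10.2% ± 0.302 to 14.7% ± 0.586. The share of Ywhaz was 20.3% ± 0.458 in RNA and 5.48% ± 0.519 in the pellet. For Ywhaq it was 4.79% ± 0.263 in RNA and 0.107% ± 0.0172 in the pellet. In the library labelled WT fraction 5/6 replicate 3, Ywhag held 43.7% of the family, inside the pellet range of 38.7% to 44.4% and above the other fraction 5/6 libraries at 35.2% to 37.2%.

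**Figure D2:**
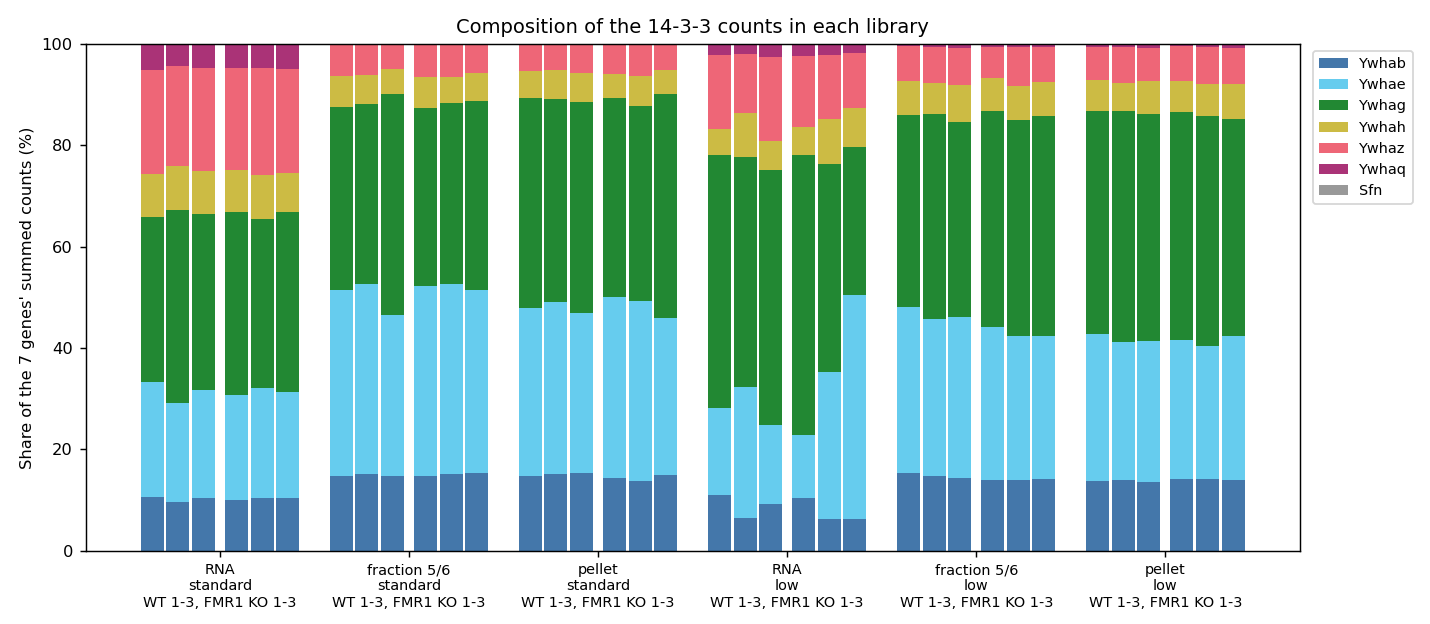
Share of the 7 genes' summed counts held by each gene (percent, stacked) in each of the 36 libraries, 6 bars per library type with WT replicates 1 to 3 before FMR1 KO replicates 1 to 3. Ywhaz (pink) and Ywhaq (purple) take means of 20.3% and 4.79% of the standard RNA bars and of 5.48% and 0.107% of the standard pellet bars.

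Occupancy is the pellet RPF level against the RNA level of the same genotype. Across all genes tested with edgeR's quasi-likelihood test (Benjamini-Hochberg adjustment), 31.1% were called higher and 34.3% lower in WT, and 31.9% and 35.2% in FMR1 KO. Of the 7 14-3-3 genes, 2 were called higher and 4 lower in each genotype, and with so few genes nothing is read from these shares against the background. Markers of some cell types moved with this comparison. In summed CPM, 4 markers of the oligodendrocyte lineage were at 63.2 to 123 in the standard pellet and 391 to 725 in standard RNA, 2 of red blood cells at 2.4 to 8.67 and 178 to 419, and 3 of microglia at 68.1 to 102.3 and 140.3 to 159.6. For 5 neuron markers (4753 to 7454 and 5418 to 6496) and 4 of astrocytes and radial glia (789 to 1122 and 672 to 1104) the ranges overlapped, and no marker in the table was at 0 in every library of either type. Their part in the differences was not tested. With the library size without Cdk8 in place of the fit's own scaling, 0 were higher and 6 lower in WT and 0 and 5 in FMR1 KO. DESeq2 called 3 higher and 4 lower in each, beside 5287 higher and 5508 lower of all genes in WT and 5502 and 5566 in FMR1 KO. With all 6 standard groups in one fit, 3 were higher and 3 lower in WT, beside 5265 and 4974 of all genes, where Ywhag was called higher (0.49 ± 0.16, adjusted p 0.016, edgeR) and Ywhah was not called (-0.35 ± 0.20, adjusted p 0.13, edgeR).

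Ywhaq had the largest difference. Its pellet counts were 87, 69 and 32 in WT and 50, 40 and 48 in FMR1 KO, against 40015 to 50513 counts in RNA. That is 4.09, 5.64 and 2.68 CPM and 3.24, 3.19 and 3.85 CPM in the pellet, and 326 to 367 CPM in RNA. Pellet and RNA libraries did not overlap, and the log2 fold change was -5.22 ± 0.23 (SE) in WT and -5.56 ± 0.16 in FMR1 KO (adjusted p 5.1e-06 and 4.4e-06, edgeR), at percentiles 1.4 and 1.21 of all genes tested. 14-3-3 theta is best known from T cells and is also expressed in brain. In the low nuclease preparation the difference was smaller, at -1.74 ± 0.19 in WT and -1.65 ± 0.24 in FMR1 KO (adjusted p 0.00045 and 0.0056, edgeR). That fit includes the 3 RNA libraries that stand apart, where Ywhaq was at 11.7 to 13.1 CPM. The other low nuclease RNA libraries held 116 and 110 CPM in WT and 121 CPM in FMR1 KO, above the 19.4 to 31.1 CPM of the low nuclease pellet.

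Ywhaz, the zeta isoform and often the reference member of the family in structural work, was at 189, 209 and 172 CPM in the WT pellet and at 205, 172 and 190 CPM in the FMR1 KO pellet. In RNA it was at 1451, 1512 and 1374 CPM in WT and 1428, 1596 and 1467 CPM in FMR1 KO. The groups did not overlap. The log2 fold change was -1.78 ± 0.13 in WT and -1.86 ± 0.17 in FMR1 KO (adjusted p 2e-05 and 9.2e-05, edgeR), at percentiles 14.3 and 12.8. With low nuclease it was -0.96 ± 0.24 in WT and -0.69 ± 0.25 in FMR1 KO (adjusted p 0.012 and 0.077, edgeR), the latter not called. Ywhah, the eta isoform, was at 202, 235 and 174 CPM in the WT pellet and at 164, 161 and 181 CPM in the FMR1 KO pellet. In standard RNA it was higher, at 550 to 680 CPM, while low nuclease RNA held 48.8 to 295 CPM. Its log2 fold change was -0.46 ± 0.13 in WT and -0.71 ± 0.17 in FMR1 KO (adjusted p 0.017 and 0.0097, edgeR). With low nuclease it was -0.03 ± 0.25 in WT and -0.06 ± 0.27 in FMR1 KO (adjusted p 0.93 and 0.89, edgeR), called in neither. The WT call for Ywhah was lost without replicate 1 (adjusted p 0.076, edgeR) or replicate 2 (adjusted p 0.12, edgeR). In both settings the lower calls among the 7 genes in WT went from 4 to 2. In FMR1 KO the calls for Ywhab, Ywhae, Ywhah and Sfn were lost without replicate 1 or replicate 3, where those for Ywhaq and Ywhaz held.

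Ywhab and Ywhae were called higher in the standard pellet. With low nuclease, Ywhab was at 0.72 ± 0.30 in WT and 1.03 ± 0.32 in FMR1 KO (adjusted p 0.078 and 0.048, edgeR), and Ywhae at 0.61 ± 0.31 and 0.02 ± 0.53 (adjusted p 0.13 and 0.98, edgeR), so 1 of these 4 was called. Ywhab was at 546, 628 and 467 CPM in the WT pellet and at 744, 743 and 699 CPM in WT RNA. Ywhae, the epsilon isoform whose gene lies in the region deleted in Miller-Dieker lissencephaly, was at 1214, 1419 and 959 CPM in the WT pellet and 1606, 1489 and 1443 CPM in WT RNA. For both, every pellet CPM was below every RNA CPM in WT, while the fitted log2 fold change of Ywhae was 0.81 ± 0.15 (adjusted p 0.0023, edgeR), because the fit scales libraries by TMM. The 2 scalings differed for all genes: with the library size without Cdk8 in place of TMM, the all-gene median on the log2 scale moved from -0.11 to -1.26 in WT and from -0.07 to -1.17 in FMR1 KO, and 1405 genes were called higher and 10979 lower in WT, against 5033 and 5542 with TMM. In FMR1 KO the split was 1259 and 10063 against 5144 and 5679. The values for Ywhab were 0.73 ± 0.13 in WT and 0.49 ± 0.13 in FMR1 KO and became -0.41 and -0.62, those for Ywhae of 0.81 and 0.68 became -0.34 and -0.44, and those for Ywhag of 0.38 and 0.22 (adjusted p 0.075 and 0.26, edgeR, not called) became -0.77 and -0.88. The calls for Ywhaq, Ywhaz and Ywhah kept their direction under both. Sfn also passed the test as lower, but with 0 or 1 pellet count its fitted value depends on the prior count and is not given.

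Ratios between paralogs within a library need no scaling at all. For the 6 expressed genes there are 15 pairs, and each was compared between 6 pellet and 6 RNA libraries with a two-sided exact permutation test on log2 count ratios, adjusted over the 15. All 15 pairs differed at an adjusted p under 0.05. Most genes of any kind were called between pellet and RNA and pairs of other genes were not tested, so the count is not read as particular to the paralogs, and the smallest p that 6 against 6 allows is 0.002165. The ratio of Ywhag to Ywhaz had a log2 of 2.9 ± 0.193 (SD, n = 6) in the pellet and 0.782 ± 0.108 in RNA, that of Ywhab to Ywhaz 1.43 ± 0.181 and -0.998 ± 0.0254. Ywhab and Ywhaz, the closest pair after Ywhag and Ywhah in protein sequence, thus changed order, since Ywhaz had the more counts in every RNA library and Ywhab in every pellet library. The ratio of Ywhag to Ywhah was 2.94 ± 0.182 in the pellet and 2.05 ± 0.103 in RNA. The smallest difference was that of Ywhab to Ywhae, at -1.18 ± 0.135 and -1.05 ± 0.037 with overlapping groups (exact permutation p 0.0368). Within 1 genotype, 3 against 3 libraries allow no p below 0.1.

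These differences ran alongside the share of copied coding sequence, as the plot of occupancy against 30-mer uniqueness shows. The ratio here is the log2 of mean pellet CPM over mean RNA CPM, with 1 added to each mean and genotypes pooled. It was taken for protein-coding genes with a mean of at least 10 CPM in standard RNA. Its median was -1 for 8286 genes with under 5% of coding 30-mers found elsewhere and -1.14 for 1144 genes at 5% to under 50%. It was -2.43 for 490 genes at 50% to under 95% and -3.46 for 163 genes at 95% or more. On the same scale Ywhae was at -0.389, Ywhab at -0.512 and Ywhag at -0.821, all above the median of the first class. Ywhah at -1.71 and Ywhaz at -2.95 were also above the medians of their classes. Ywhaq at -6.18 was below, at percentile 0.176 of 10213 genes. How the authors' counting treated reads with more than 1 best position is not given in the sources used here, and the part of copied sequence in these ratios was not tested.

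Enrichment compares pellet with fraction 5/6, both of them footprints. Ywhaz shows the levels: it was at 340, 212 and 179 CPM in WT fraction 5/6 and at 299, 325 and 371 CPM in FMR1 KO fraction 5/6, against the 172 to 209 CPM of the pellet. The lowest of these, which lies within the pellet range, is the library labelled WT fraction 5/6 replicate 3. The fitted log2 fold changes of 6 genes (Sfn had too few counts) were between -0.51 and -0.13 in WT and between -0.51 and -0.20 in FMR1 KO, all 6 below 0 in both. None passed edgeR's test in either genotype, where 0.0229% and 11.4% of all genes did. At an unadjusted p under 0.05 there were 0 in WT and 3 in FMR1 KO (Ywhab, Ywhah and Ywhaz), where 801 of 13076 and 4183 of 13248 genes had one. DESeq2 called 0 and 4, beside 90 and 2070 of all genes. Without the library labelled WT fraction 5/6 replicate 3, Ywhaz was called lower in WT (-0.58 ± 0.097, adjusted p 0.027, edgeR), in a fit that called 1273 of 13240 genes, 246 of them lower. Of the 15 paralog ratios, 0 differed between pellet and fraction 5/6 (smallest exact permutation p 0.0195, adjusted 0.227). Without that library 3 did (exact permutation test, adjusted p 0.0325, 0.0325 and 0.0433). Pellet minus fraction 5/6, the log2 ratio differed by -0.22 for Ywhab to Ywhag, -0.34 for Ywhae to Ywhag and 0.35 for Ywhag to Ywhaz, so Ywhag was the higher one in the pellet in each.

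Loss of FMRP moved no 14-3-3 gene past the test. Between FMR1 KO and WT in the standard preparation the log2 fold changes were from -0.01 to 0.38 in RNA (7 genes, the highest for Sfn), from -0.20 to 0.05 in the pellet (6 genes) and from -0.25 to 0.14 in fraction 5/6 (6 genes), with standard errors of 0.10 to 0.33. None was called by edgeR or by DESeq2, and 0 had an unadjusted p under 0.05, while edgeR called 0.0735%, 0.015% and 0% of all genes and DESeq2 24, 66 and 76 genes. Fmr1 itself was called lower in RNA (-1.90 ± 0.10, adjusted p 3.7e-05, edgeR) and in the pellet (-3.72 ± 0.17, adjusted p 0.0051, edgeR). In fraction 5/6 it was not called (-3.27 ± 1.08, adjusted p 0.83, edgeR), so a lack of calls in that fit cannot show a lack of change. Leaving out WT fraction 5/6 replicate 3, as labelled, put the range in fraction 5/6 at -0.35 to -0.08, with all 6 genes below 0 and 0 called. With the library size without Cdk8 it was 0.03 to 0.44, where the median of all genes moved from -0.03 to 0.28. In the low nuclease pellet all 6 genes were above 0, at 0.08 to 0.22, against a median of -0.10 in the standard pellet, and 0 were called. In low nuclease fraction 5/6 they were at -0.12 to 0.16, with 0 called. In the interactions, which ask whether occupancy or enrichment differed between genotypes, 0 14-3-3 genes were called, beside 0.0672% and 0% of all genes. Again 0 had an unadjusted p under 0.05, DESeq2 called 0, and leaving out the library labelled WT fraction 5/6 replicate 3 gave 0 as well. Values for Ywhag show the overlap. It was at 1524, 1672 and 1260 CPM in the WT pellet and at 1377, 1070 and 1703 CPM in the FMR1 KO pellet, so the lowest and the highest of the 6 values were both FMR1 KO libraries.

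The nuclease preparation moved Ywhaq most. In the low nuclease pellet it was at 21.6, 21.9 and 27.9 CPM in WT and at 19.4, 23.2 and 31.1 CPM in FMR1 KO, above every standard pellet library. The standard against low log2 fold change was -2.16 ± 0.17 in the pellet and -1.94 ± 0.16 in fraction 5/6 (adjusted p 6.7e-06 and 2.9e-05, edgeR), at percentiles 3.34 and 3.6. Its share of the family in the pellet was 0.486% to 0.782% with low nuclease and 0.0884% to 0.135% with standard nuclease, without overlap. Of 6 genes tested, 2 were higher and 1 lower in the pellet, beside 24.7% and 29.7% of all genes, and the same numbers held in fraction 5/6 beside 19.4% and 23.2%. With the library size without Cdk8, 0 were higher and 3 lower in the pellet, and the same in fraction 5/6, beside 448 and 8563, and 385 and 7397, of all genes. DESeq2 called 3 higher and 1 lower in each, beside 4345 and 4494 of all genes in the pellet and 3550 and 3543 in fraction 5/6. The higher ones were Ywhab (0.39 ± 0.088 and 0.35 ± 0.12) and Ywhae (0.58 ± 0.1 and 0.56 ± 0.16), which with the library size without Cdk8 became -0.13 and -0.23 for Ywhab and 0.06 and -0.03 for Ywhae, where the medians of all genes were -0.54 and -0.59. Leaving out WT fraction 5/6 replicate 3, as labelled, gave values in fraction 5/6 of 0.42 ± 0.098 for Ywhab, 0.66 ± 0.13 for Ywhae and -1.91 ± 0.17 for Ywhaq, and these 3 were called. In fraction 5/6, Ywhab and Ywhae did not pass without replicate 1 or replicate 2, and Ywhaq did. MgCl2 and nuclease treatment differ together between the preparations and cannot be told apart. RPF length differs with them, since the study reports longer RPFs with low nuclease than with standard nuclease. The coding sequence of Ywhaq had 2 unique stretches of 706 at a length of 30 bases and 6 of 704 at 32 bases. Stretches longer than 32 bases were not searched. The part of RPF length in the Ywhaq difference was not tested.

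Peaks are stretches of an mRNA with raised RPF coverage, deposited for the 12 standard RPF libraries. The 5 mRNAs with peaks had 28 to 33 per library, with 30.8 ± 1.83 (SD, n = 6) in the pellet and 30 ± 1.41 in fraction 5/6 (exact permutation p 0.491), and leaving out WT fraction 5/6 replicate 3, as labelled, gave 30 ± 1.58 there (n = 5, exact permutation p 0.491). The pellet of FMR1 KO had 30.7 ± 2.08 and that of WT 31 ± 2 (n = 3 each, exact permutation p 1, smallest possible 0.1). All of these peaks had at least the median height of their library. The genes differed far more than the libraries: over 12 libraries Ywhag had 131 peaks, Ywhab 91, Ywhah 69, Ywhae 38 and Ywhaz 36, and Ywhaq and Sfn had 0. Ywhaz had exactly 3 in each library. Over all mRNAs a library had 11389 to 36435 peaks, with a mean of 26461 in the pellet and 19873 in fraction 5/6 (exact permutation p 0.134).

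**Figure D3:**
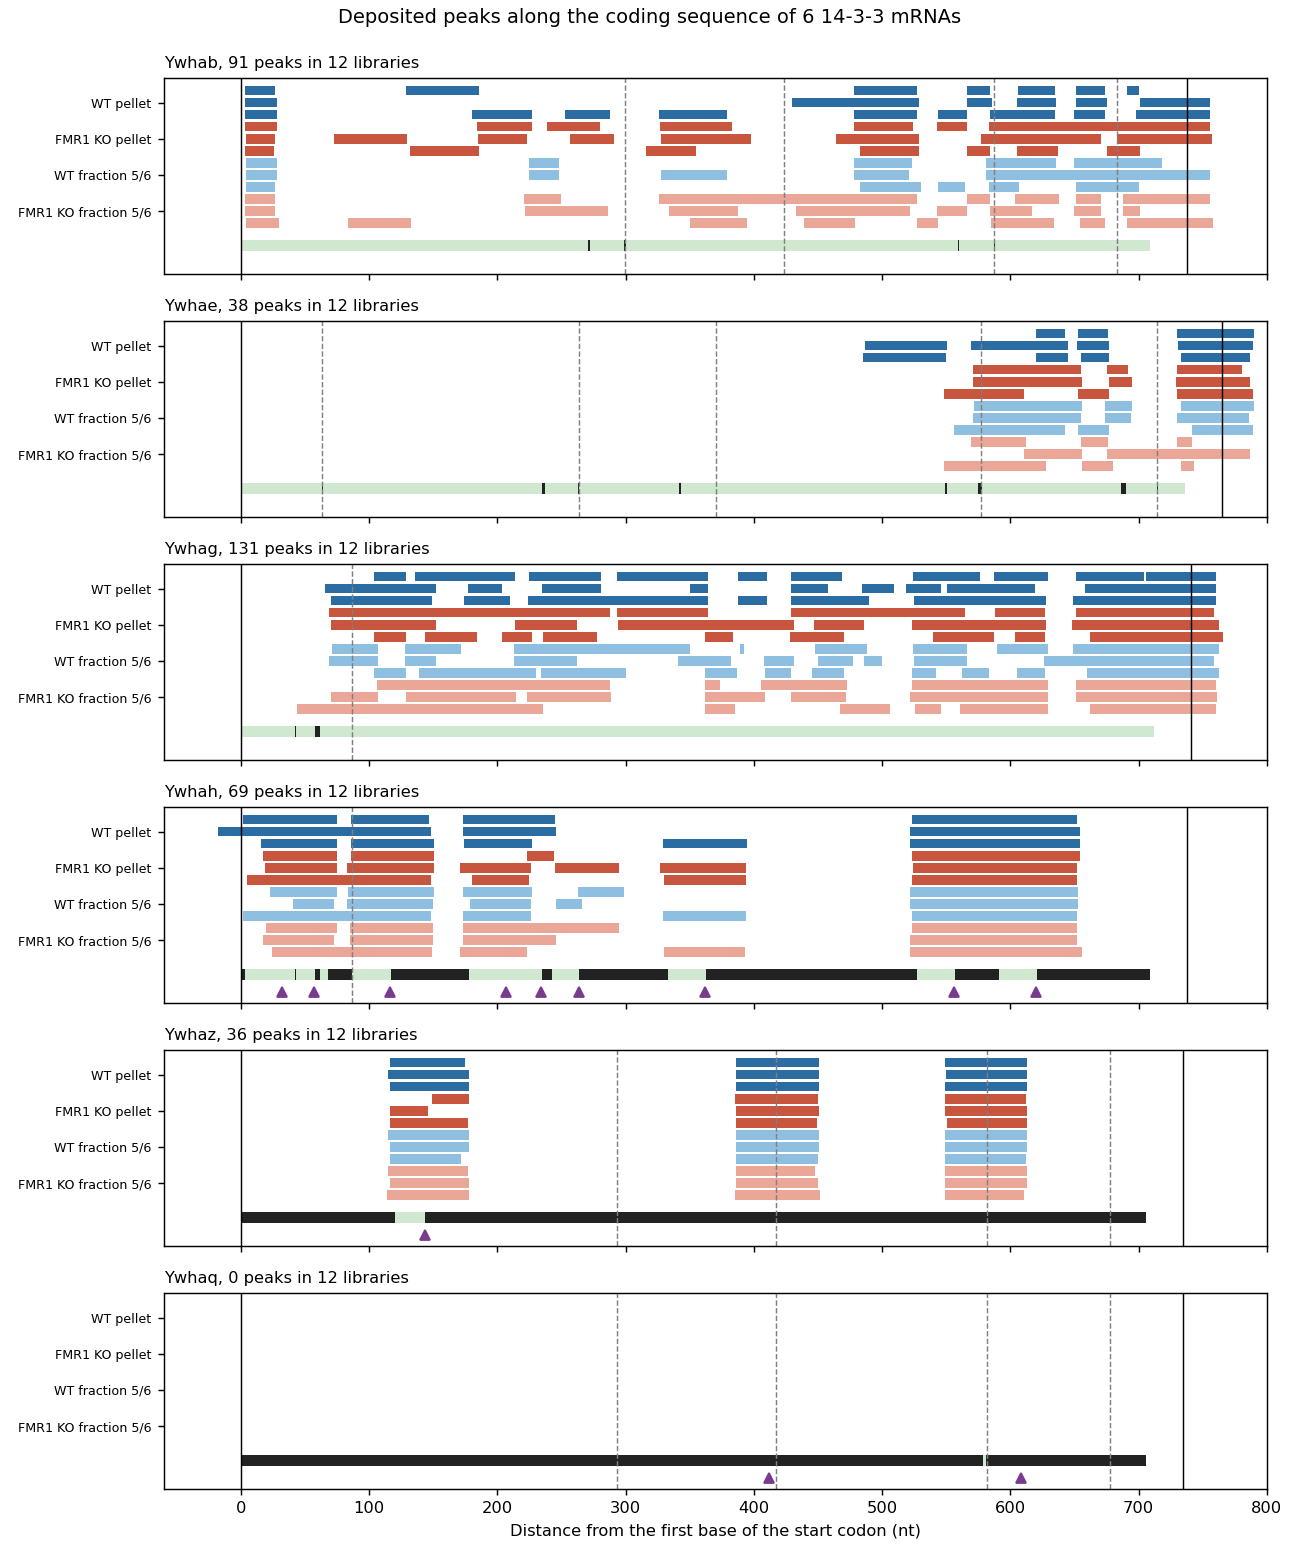
Deposited peaks along 6 14-3-3 coding sequences by distance from the start codon (nt), 1 row per library, with the start and stop codons as black lines, exon junctions as dashed lines, 30-mers found once in pale green and found elsewhere in black, and differences from the closest pseudogene as triangles. The peaks of Ywhaz sit on 2 junctions and 1 difference in nearly every library, and those of Ywhae lie from 485 nt onwards.

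Where peaks with middles within 6 nt of each other counted as 1 place, the 365 peaks made 93 places, of which 7 were found in all 12 libraries and 15 in 9 or more. Ywhab had its place in all 12 at codon 5, with a height of 183 to 1122 reads and a width of 23 to 26 nt. Ywhag had its place 9 nt before the stop codon, with heights of 211 to 1070 reads. Ywhae, the highest of all, reached 1852 reads at a place 5.5 nt before its stop codon found in 9 libraries, the 6 pellet and the 3 WT fraction 5/6 libraries. In the 3 FMR1 KO fraction 5/6 libraries a place at base 896 was found instead, 29 nt before the stop codon, and this difference was not tested. These places lay on unique sequence, and no paralog had a recurrent peak at the position that aligns with Ywhab codon 5. Ywhae had no peak in the first 485 nt of its coding sequence in any library, while the first peaks of Ywhab and Ywhag began 3 and 44 nt after the first base of the start codon.

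Ywhaz and Ywhah had the other 5 places found in every library. On Ywhaz, the middles at bases 816 and 979 were 0.5 and 1.5 nt from the exon junctions after bases 816 and 980, and another place at base 543, in 10 libraries, was at the insertion that sets Gm4202 apart, in the only stretch of the Ywhaz coding sequence without a copy. These are the capitals in the 3 Ywhaz windows above. On Ywhah the middles at 369, 807.5 and 873 were 0, 1.5 and 0 nt from substitutions against Gm12428. Median widths at these 6 places were 62 to 65.5 nt. At Ywhah base 297, found in 9 libraries and 3 nt from bases missing in Gm12428, the median width was 58 nt. At the places found in 9 or more libraries on Ywhab, Ywhae and Ywhag median widths ran from 22.5 to 61 nt, which overlaps that place. They were 24 nt at Ywhab codon 5, 57 nt and 56 nt at the stop codons of Ywhae and Ywhag and 61 nt at Ywhag base 444.

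Over all peaks of each gene, 34 of 36 Ywhaz peaks (94.4%) had their middle within 3 nt of an exon junction or a difference from the copy, where 4.35% of coding bases are that close. For Ywhah it was 57 of 69 (82.6%) against 12.2% of bases. For the 3 genes with little copied sequence, it was 0 of 91 for Ywhab, 1 of 38 for Ywhae (2.63%) and 3 of 131 for Ywhag (2.29%), against 3.25%, 3.92% and 0.81% of bases, but no copy difference is listed for these 3, so only junctions could count there. Near a junction alone there were 24 of the 36 Ywhaz peaks, against 3.27% of bases, and 0 of the 69 Ywhah peaks, whose coding sequence has 1 junction. Over all mRNAs only junctions were counted. The share of peaks within 3 nt of one was 3.72% for mRNAs with under 5% copied coding 30-mers, 5.35% and 15.9% in the next classes, and 50.9% in mRNAs at 95% or more, beside 3.49% to 4.37% of coding bases. Whether ribosomes also paused at other places on Ywhaz, Ywhaq or Ywhah was not tested.

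**Figure D4:**
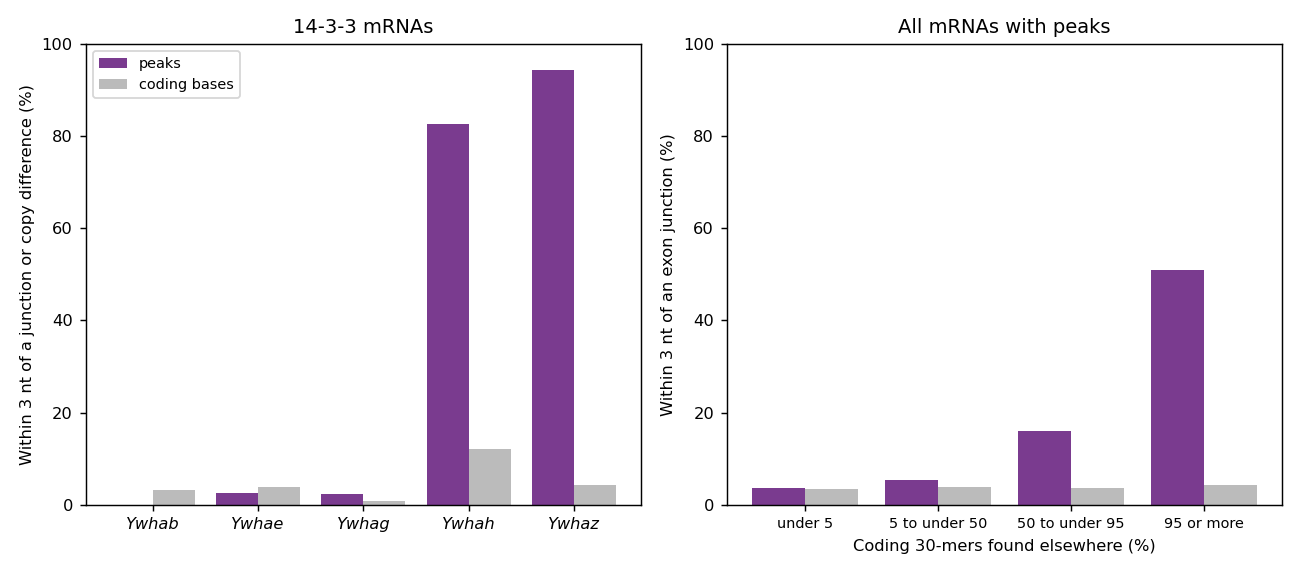
Share of peaks (purple) and of coding bases (grey), in percent, within 3 nt of an exon junction or copy difference for 5 14-3-3 mRNAs (left, junctions alone for Ywhab, Ywhae and Ywhag) and within 3 nt of an exon junction for all mRNAs with peaks by share of copied coding 30-mers (right). Ywhah and Ywhaz stand at 82.6% and 94.4% on the left, and the purple bars on the right rise from 3.72% to 50.9%.

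Across the 36 libraries, the protein-coding genes whose log2(CPM + 1) was most like each 14-3-3 gene were listed, of 9463 with a mean of at least 10 CPM. The libraries share depth, library type and preparation, and the correlations are a description. Ywhab was closest to Cnbp (r = 0.994), Rad23b and Cpsf6. Ywhae was closest to the splicing factor gene Zranb2 (r = 0.985), Dstn and Krr1, and Ywhag to Bysl (r = 0.992), Vps26b and Gga1. Ywhah was closest to Rbm18 (r = 0.991), Cggbp1 and Cmpk1, and Ywhaz to Azi2 (r = 0.992), Cbx5 and Gnal. For Ywhaq they were Sms, the gene of spermine synthase (r = 0.989), Tmem170b and the autophagy gene Map1lc3b. Of these 3, Sms and Map1lc3b had 100% of their coding 30-mers elsewhere in the genome and Tmem170b 0.817%. Those like Ywhaz, itself at 96.6%, had few: 0.759% for Azi2, 5.88% for Cbx5 and 1.8% for Gnal. Without the 3 RNA libraries that stand apart, r stayed at 0.989 to 0.991 for the 3 genes like Ywhaq and was 0.929 to 0.964 for those like Ywhab. Between paralogs, Ywhab and Ywhae had r = 0.953 over 36 libraries, and Ywhab and Ywhaq 0.22.

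The proteins that 14-3-3 dimers bind were measured through their mRNAs. These lists were fitted with TMM, and edgeR's adjusted p under 0.05 is the call. Of 37 known binding partners, 13 were higher and 12 lower in the WT pellet than in WT RNA, and 12 higher and 14 lower in FMR1 KO, with medians of 0.04 and -0.01 on the log2 scale beside -0.11 and -0.07 for all genes. Among the higher were Ndel1, which moves cargo with dynein (2.85 ± 0.64 in WT), Th, the tyrosine hydroxylase that 14-3-3 binding activates (1.58 ± 0.21), and the kinase gene Map3k5 (1.36 ± 0.17). Among the lower were the potassium channel gene Kcnk3 (-2.95 ± 0.22) and Ssh1, a phosphatase of cofilin (-2.09 ± 0.16). Higher and lower partners here stand beside 31.1% and 34.3% of all genes in WT and 31.9% and 35.2% in FMR1 KO, and with the library size without Cdk8 they were 1 and 25 in WT and 1 and 27 in FMR1 KO. With the low nuclease libraries they were 5 and 9 in WT and 8 and 6 in FMR1 KO, in fits that called 3880 genes higher and 4302 lower of 15610 in WT and 2454 and 1953 of 15309 in FMR1 KO. With a replicate number left out they were 8 to 12 and 10 to 12 in WT and 8 to 11 and 10 to 15 in FMR1 KO, the fewest higher without replicate 2 in WT and without replicate 1 in FMR1 KO. Of 17 kinases that phosphorylate 14-3-3 docking sites, 7 were higher and 5 lower in WT, led by Sik2 (1.46 ± 0.11) and by Akt2 (-2.05 ± 0.14), and 5 and 6 in FMR1 KO. With the library size these became 0 and 13 in WT and 0 and 14 in FMR1 KO. The fits with the library size called 1405 higher and 10979 lower of all genes in WT, and 1259 and 10063 in FMR1 KO. With low nuclease the kinases were 8 and 4 in WT and 7 and 3 in FMR1 KO, beside the low nuclease calls over all genes given above. In FMR1 KO they were 3 and 4 without replicate 1 or replicate 3. With so few genes nothing is read from the counts of either list against all genes.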

How the data were processed

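Counts per gene were deposited as raw counts of each library. Per the labels and the study's methods, the authors trimmed reads with Cutadapt 2.10, removed reads of rRNA and other non-coding RNA with Bowtie2 2.3.5, aligned with STAR 2.7.8a to GRCm38 (Ensembl 102), removed duplicates with Picard and SAMtools 1.19.2 and counted with featureCounts 2.2.0. Strand and multi-mapping settings are not given in the sources used here, and depth intervals would cover counting error only. Peaks were deposited per library with height as a coverage signal in reads, not scaled between libraries.

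CPM leave out Cdk8, and log2 levels use a pseudocount of 1. Genes passing filterByExpr were tested with edgeR 4.0.16 (TMM, quasi-likelihood, Benjamini-Hochberg at 0.05) in R 4.3.3, and DESeq2 1.42.0 was an alternative. Paralog ratios had 0.5 added to each count and were compared with exact permutation tests (scipy 1.17.1) for genes with at least 10 counts. Transcript and exon positions came from the GENCODE annotation of GRCm38, and coding 30-mers were searched on both strands of 21 chromosomes. Proteins were aligned with MAFFT 7.526 from the annotated coding sequences. Scripts were tested on simulated data. In no 2 groups that a test compares did all 3 same-numbered pairs correlate above 0.1, so replicate numbers were not used as pairs. Low nuclease WT RNA passed this limit with standard WT fraction 5/6 (0.16, 0.124 and 0.19) and with standard FMR1 KO RNA (0.261, 0.319 and 0.201). A gradient gives both pellet and fraction 5/6, and whether same-numbered libraries share a preparation is not given. The main tests treat libraries as independent. No 2 libraries of a group agreed within sampling noise. The members and lists were chosen with earlier results of these data known. The genes named are the 7 members, Fmr1, Cdk8, the 3 most alike genes of each member at 10 CPM or more, and 2 to 4 genes of each list.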

Additional observations from a re-analysis of the deposited data

How the results depend on the processing

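Which 14-3-3 genes passed the test depended on the setting in the pellet against RNA comparison. With the low nuclease libraries 3 were called in WT and 2 in FMR1 KO, in place of 6 in each, while the calls over all genes went from 10575 of 16166 to 8182 of 15610 and from 10823 of 16132 to 4407 of 15309. Those fits include the 3 RNA libraries that stand apart. Leaving out 1 replicate number at a time gave 4 to 6 in WT and 2 to 6 in FMR1 KO, the fewest without replicate 1 or 2 in WT and without replicate 1 or 3 in FMR1 KO. Pellet against fraction 5/6 gave 0 in both genotypes. It gave 1 in WT without the library labelled WT fraction 5/6 replicate 3 (Ywhaz), 1 with the low nuclease libraries (Ywhah), and 4 in FMR1 KO with DESeq2. Standard against low preparation in fraction 5/6 gave 3, and 1 to 3 with a replicate number left out (1, Ywhaq, without replicate 1 or 2). With the replicate number as a block, the calls were 6 in both pellet against RNA comparisons, 3 in both preparation comparisons and 0 in the others, as without it. Pairing of the numbers was seen in none of the groups compared, though in WT low nuclease pellet and fraction 5/6 (0.203, 0.0489 and 0.193) every library correlated best with its own number.

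The library size without Cdk8 moved the median of all genes from -0.11 to -1.26 in WT and from -0.07 to -1.17 in FMR1 KO for pellet against RNA, and from -0.03 to -0.54 (pellet) and -0.02 to -0.59 (fraction 5/6) for standard against low. Signs turned with it for Ywhab (-0.41 in WT, -0.62 in FMR1 KO, -0.13 and -0.23 for standard against low in the pellet and fraction 5/6), for Ywhae (-0.34, -0.44 and -0.031 in fraction 5/6) and for Ywhag (-0.77 and -0.88). With the low nuclease libraries Ywhag in WT was at -0.017, and the cause was not tested.

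The 15 paralog ratios that differed between pellet and RNA were 0 within WT and 0 within FMR1 KO, where 3 against 3 allows no p below 0.1. They were 12 with low nuclease libraries, 15 without the RNA libraries that stand apart (chosen after seeing the data), and 13 to 15 with a replicate number left out. Between pellet and fraction 5/6, 3 ratios differed once the library labelled WT fraction 5/6 replicate 3 was left out. The difference in peak number between FMR1 KO and WT pellets ran from -1.5 to 1.5 with a replicate number left out. Places in all 12 libraries were 6 with a 3 nt window and 10 with 12 nt, and those in 9 or more were 9 and 20, in place of 15. With 3 nt, Ywhag had 0 places in all 12 libraries and Ywhae 0 in 9 or more, while Ywhab kept 1 in all 12, Ywhah 3 and Ywhaz 2. For 28 or 32 bases in place of 30, Ywhaq had 100% and 99.1% of coding stretches elsewhere.

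Counts of called genes over all genes moved by more than 1.5 times. FMR1 KO against WT gave 12, 2 and 0 in RNA, pellet and fraction 5/6 with edgeR and 24, 66 and 76 with DESeq2, and the 2 interactions 11 and 0 with edgeR and 59 and 41 with DESeq2. Pellet against fraction 5/6 in WT gave 3 with edgeR (801 at an unadjusted p under 0.05), 90 with DESeq2, 3559 with low nuclease and 1273 after WT fraction 5/6 replicate 3 was left out. In FMR1 KO it gave 1515, 2070 with DESeq2, 662 with the block, 173 with the library size, 3193 with low nuclease, 133 without replicate 1 and 7 without replicate 3. Standard against low in fraction 5/6 gave 6276, and 1649 without replicate 2. The low counts of Ywhaq in the standard pellet, 32 to 87, limit its precision.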
